A study of Mus musculus with 3 samples.

Results

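The genes described here encode the BMP, TGF-beta and activin pathway: its ligands, receptors, Smad proteins, inhibitors and Id targets. They were chosen by gene symbol alone, and 62 genes with 1 transcript cluster each, of 22206 clusters in all, matched. By role these were 25 ligands, 13 receptors, 6 signal-transducing Smads, 10 inhibitors, 4 Id genes and 4 genes that matched by name only. Expression was measured on GeneChip Clariom S arrays in alveolar type 2 (AT2) cells, the surfactant-producing stem cells of the alveolus. Intermittent CS mice received cigarette smoke (CS) in 3 weeks of a 5-week protocol that alternated with weeks of air. Continuous CS mice received it in the last 3 weeks without a break, and air control mice breathed air throughout. Both smoke groups were exposed for 60 min a day on 5 days a week and sacrificed 24 h after the last smoke. All were female Sftpc/GFP mice (CBA/Ca × C57BL6J) that were 9 to 11 weeks old, whose GFP marks cells expressing the surfactant gene Sftpc. That GFP is also weakly present in some cells of the bronchioalveolar duct junction and terminal bronchioles. Cells high in EpCAM, an epithelial surface protein, and in GFP were sorted and pooled from 3 mice per exposure, and each pool gave 1 array. Each exposure therefore has no replicate, a fold between arrays carries no error or p-value, and exposure and pool cannot be told apart.

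Ligands of this family bind paired type I and type II serine/threonine kinase receptors on the cell surface. BMP receptors phosphorylate Smad1, Smad5 and Smad9, TGF-beta and activin receptors phosphorylate Smad2 and Smad3, and both sets enter the nucleus with Smad4. Secreted proteins such as noggin and follistatin trap the ligands, while Smad6, Smad7 and the Smurf ubiquitin ligases act inside the cell. In the alveolus, BMP signaling is known to restrain AT2 cell proliferation, and TGF-beta signaling takes part in the passage of AT2 to alveolar type 1 (AT1) cells.

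Values are log2 expression values as deposited, and they are compared here between arrays for a gene, not between genes. The background was set at the 95th percentile of 1414 olfactory or vomeronasal receptor clusters, which was 5.14 with intermittent CS, 5.15 with continuous CS and 5.19 with air. Of the 62 genes, 40 lay above this background on all 3 arrays, follistatin (Fst) did so with intermittent CS only, and 21 lay below it on every array. All 16 AT2 markers were above background on every array, with the transporter gene Abca3 at 18.31 with intermittent CS, 17.95 with continuous CS and 18.12 with air. Of these, 5 (Sftpc, Sftpa1, Sftpb, Slc34a2 and Lyz2) sat at the highest value of the table, 19.93, on all 3 arrays, where a difference cannot be seen. Of 17 measured endothelial markers, 16 were above background on every array too. Many clusters held exactly the same value on a pair of arrays, and a difference in these could not be read. This was so for 15 of the 62 genes between the CS arrays, 14 between continuous CS and air and 7 between intermittent CS and air.

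Few genes of the pathway differed by 2-fold, and the ligand gene Tgfb3 was the one that did so on both CS arrays. Against air, none of the 62 genes was 2-fold or more above with intermittent CS (0.833% of all clusters were) and 1, Tgfb3, was as far below (0.716% of all clusters). Continuous CS had 1 gene 2-fold or more above air, Bmp6, where 1.13% of all clusters were, and 1 as far below, again Tgfb3, where 0.473% were. On both CS arrays at once, 0 of the 62 lay 2-fold or more above air (0.459% of all clusters) and 1, Tgfb3, below (0.261%), and at 1.5-fold the counts were 0 above (1.81%) and 1 below (1.47%). Between intermittent and continuous CS, none was 2-fold higher or lower, where 0.117% and 0.635% of all clusters were. Counts of 1 or 0 in 62 are near what these backgrounds give. At 1.5-fold, 4 genes were above air with continuous CS (Bmp6, Tgfb2, Acvrl1 and Fstl3, 6.45% of the 62 against 3.78% of all clusters), and the same 4 were lower with intermittent than with continuous CS (2.67% of all clusters). These comparisons share the continuous CS array. No gene was 1.5-fold higher with intermittent than continuous CS (1.27% of all clusters). Tgfb3 was 1.5-fold or more below air with intermittent CS (3.43% of all clusters), and Tgfb3 and Smad1 were with continuous CS (2.75%). Bmp3 was 1.5-fold or more above air with intermittent CS, as was Acvr2b, which lay below background (3.33% of all clusters). The median log2 difference of the 62 genes was 0.00 for intermittent minus continuous CS, -0.02 between intermittent CS and air and 0.00 between continuous CS and air, and over all clusters it was 0.00 in each.

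**Figure D1:**
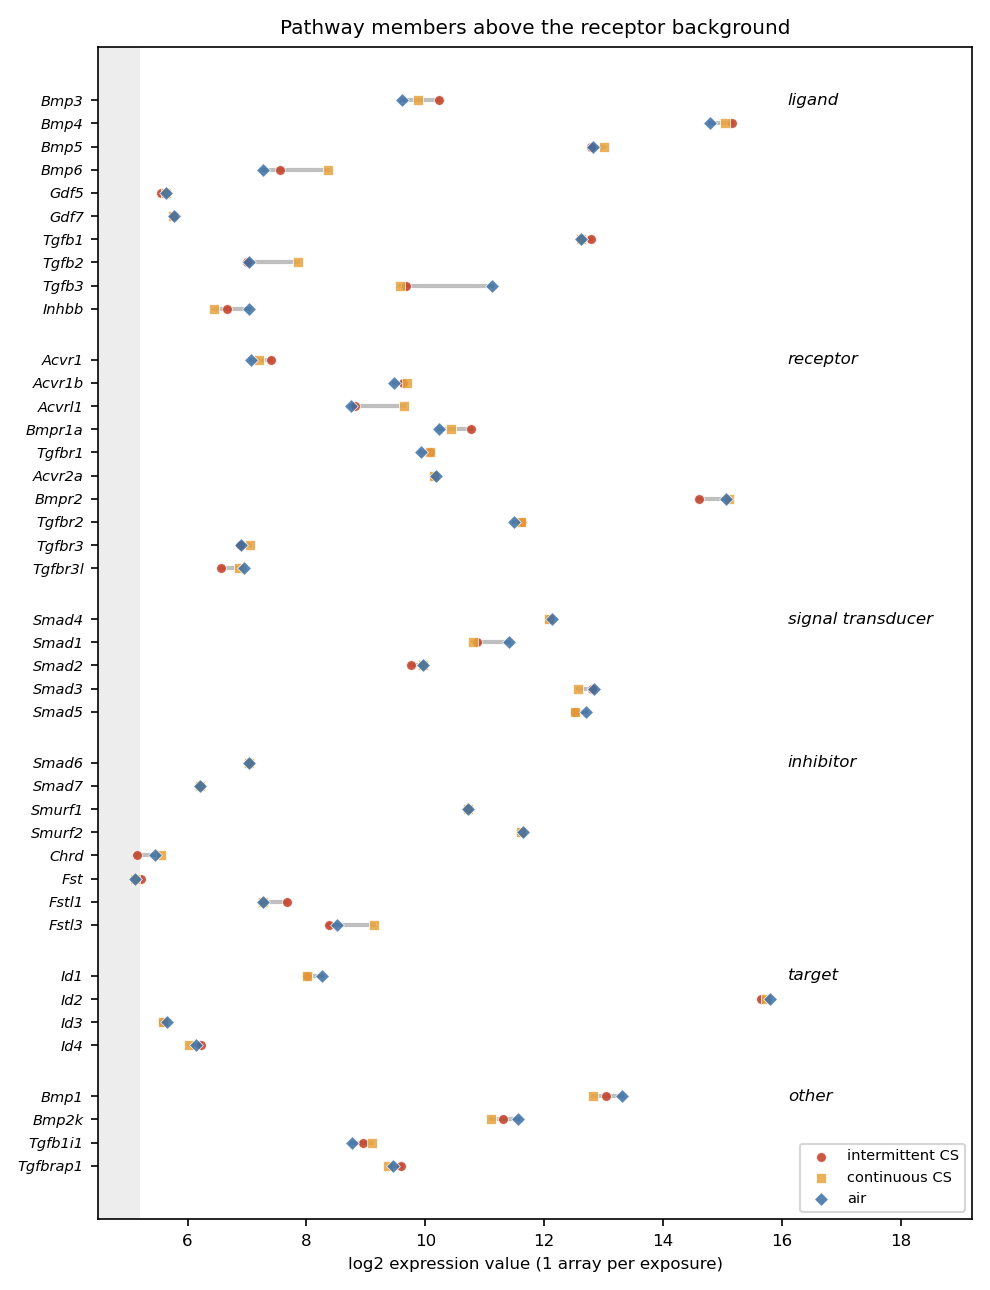
Log2 expression value (x axis) of the 41 pathway genes above the receptor background on at least 1 array, by role (rows), with a circle for intermittent CS, a square for continuous CS and a diamond for air, 1 array each; the shaded area lies below the background. Tgfb3 lies at 9.67 and 9.58 on the CS arrays and at 11.13 with air, while most genes lie close together on all 3 arrays.

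Among the TGF-beta ligands, Tgfb3, a secreted isoform known for its part in lung and palate development, was at 9.67 after intermittent and 9.58 after continuous CS, against 11.13 in air. It was 2.74-fold lower with intermittent CS and 2.93-fold lower with continuous CS than with air, and the CS arrays were 1.07-fold apart. Over all clusters above background on at least 1 array, 99% lay within 2.57-fold between each CS array and air. Tgfb3 thus lay outside that range in both comparisons, which use the same air array. Of the 22206 clusters, 51 were at least as far below air as Tgfb3 with intermittent CS and 30 with continuous CS, Tgfb3 included. Tgfb1, the isoform best known in fibrosis and immune control, was at 12.79 with intermittent CS and at 12.63 with continuous CS and air. Tgfb2 was at 6.996 with intermittent CS, 7.87 with continuous CS and 7.04 with air. The intermittent CS and air values nearly coincided, and continuous CS was 1.78-fold above air and intermittent CS 1.83-fold below continuous CS.

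Among the BMP ligands, the value of Bmp6, a ligand also known for the control of iron through hepcidin, was 7.55 with intermittent CS, 8.37 with continuous CS and 7.28 with air. Continuous CS was 2.12-fold above air, and intermittent CS 1.75-fold below continuous CS and 1.21-fold above air. With an offset of 32 on the linear scale the excess of continuous CS was 1.93-fold, below the 2-fold line. Bmp4, which mesenchyme and epithelium of the lung both make during branching, was at 15.16 with intermittent CS, 15.04 with continuous CS and 14.80 with air. Bmp5 was at 12.79 with intermittent CS, 13.01 with continuous CS and 12.83 with air. No pair of arrays was more than 1.29-fold apart for Bmp4 or 1.16-fold for Bmp5. Bmp3, a family member that can antagonize other BMPs, was at 10.22 with intermittent CS, 9.88 with continuous CS and 9.61 with air, and was 1.53-fold higher with intermittent CS than with air. Bmp2, Bmp7, Bmp8a, Bmp8b, Bmp10 and Bmp15 lay below background on every array.

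The promoters of Bmp6 and Tgfb2 are shown with that of Fstl3, an inhibitor gene described further on, since these genes shared the excess on the continuous CS array. Acvrl1, which shared it too, and Tgfb3 are named only. Each sequence holds the 250 bases before the transcription start from RefSeq on GRCm38.p6, written 5′ to 3′ on the strand of the gene.
Bmp6, chr13:38345466-38345715, plus strand: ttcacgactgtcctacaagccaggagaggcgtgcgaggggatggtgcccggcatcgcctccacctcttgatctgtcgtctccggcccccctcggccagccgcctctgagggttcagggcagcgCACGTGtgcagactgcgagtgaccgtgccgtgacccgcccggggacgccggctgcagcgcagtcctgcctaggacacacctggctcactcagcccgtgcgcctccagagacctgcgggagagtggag
Tgfb2, chr1:186705990-186706239, minus strand: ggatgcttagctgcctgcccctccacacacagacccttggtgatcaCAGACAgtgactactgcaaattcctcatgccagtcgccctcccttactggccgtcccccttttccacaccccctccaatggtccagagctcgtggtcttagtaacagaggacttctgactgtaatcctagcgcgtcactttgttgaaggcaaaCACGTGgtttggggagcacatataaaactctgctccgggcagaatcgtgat
Fstl3, chr10:79777024-79777273, plus strand: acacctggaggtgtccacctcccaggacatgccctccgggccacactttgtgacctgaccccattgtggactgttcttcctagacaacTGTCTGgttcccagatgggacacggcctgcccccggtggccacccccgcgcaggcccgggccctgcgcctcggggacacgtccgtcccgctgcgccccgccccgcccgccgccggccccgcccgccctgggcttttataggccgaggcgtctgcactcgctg
Capitals mark matches, on either strand, of the E-box CACGTG and of the Smad box CAGACA. On the other strand the Smad box reads TGTCTG, as in Fstl3, and these matches do not overlap. The E-box was found once each in Bmp6 and Tgfb2 and the Smad box once each in Tgfb2 and Fstl3. Of all 32851 promoter windows of this length, 6.02% held the E-box and 17.1% the Smad box. The 44 pathway genes with a window had 51 windows, of which 4 held the E-box and 8 the Smad box. By gene, 4 of the 44 held the E-box (Acvr1b, Bmp4, Bmp6 and Tgfb2) and 8 the Smad box. The GC-rich Smad motif GGCGCC, which none of the 3 promoters shown holds, was found in 12 of the 44 genes, Id2 and Id4 among them. It was in 12 of the 51 windows, against 9.59% of all windows, and the Smad palindrome GTCTAGAC in 0, against 0.167%. A match describes the letters of the window only.

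The activin subunit gene Inhbb, a component of activin B, was at 6.66 with intermittent CS, 6.45 with continuous CS and 7.03 with air. The log2 difference from air was -0.37 with intermittent CS and -0.58 with continuous CS, just short of 1.5-fold. Inhba, which encodes the subunit of activin A, lay below background at 3.62, 3.78 and 3.66 in the same order, as did Inhbc and Inhbe. Of the 8 GDF ligand genes, Gdf5 and Gdf7 lay above background, and their arrays were at most 1.06-fold apart for Gdf5 and 1.02-fold for Gdf7. Gdf2, Gdf3, Gdf6, Gdf9, Gdf10 and Gdf11 lay below it.

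Among the receptors, Acvrl1, the type I receptor ALK1 that endothelial cells use for BMP9 and BMP10, differed most. It was at 8.81 with intermittent CS, 9.65 with continuous CS and 8.75 with air, so that intermittent CS and air were 1.05-fold apart. Continuous CS was 1.86-fold above air, and intermittent CS 1.78-fold below continuous CS. Bmpr1a, a type I receptor for BMP2 and BMP4, was at 10.78 with intermittent CS, 10.43 with continuous CS and 10.22 with air. It was 1.47-fold above air with intermittent CS and 1.15-fold with continuous CS. The type II BMP receptor Bmpr2 was at 14.61 with intermittent CS, 15.11 with continuous CS and 15.07 with air. It was 1.37-fold below air with intermittent CS and 1.03-fold above air with continuous CS, so that Bmpr1a and Bmpr2 lay on opposite sides of air with intermittent CS.

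The TGF-beta receptors Tgfbr1 and Tgfbr2 varied little. Tgfbr1 was at 10.08 on both CS arrays and 9.93 with air, and Tgfbr2 at 11.62 with intermittent CS, 11.61 with continuous CS and 11.49 with air. Tgfbr3, the co-receptor betaglycan, was at 6.89, 7.05 and 6.90 on these arrays, and Tgfbr3l, its relative, at 6.56, 6.86 and 6.95. Of the receptor genes named for activin, whatever ligand they serve, Acvr2a (type II) was within 1.02-fold on all arrays. Acvr1, also called ALK2, was at 7.41 with intermittent CS, 7.21 with continuous CS and 7.07 with air, and Acvr1b, also called ALK4, at 9.63, 9.69 and 9.48. Acvr1c, Bmpr1b and Acvr2b lay below background. Of the 13 receptor genes, 7 were above and 6 below air with intermittent CS (median log2 difference 0.07), and 10 were above and 2 below air with continuous CS (median 0.14). Over the 10 above background, these counts were 6 and 4 (median 0.10) and 8 and 2 (median 0.14). Of all 22206 clusters, 8199 lay above and 8584 below air with intermittent CS, and 8355 above and 8455 below with continuous CS. Of the 12860 clusters above background on at least 1 array, these counts were 5339 and 5132, and 5267 and 5100.

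Of the Smads that carry the signal, none was higher than air with intermittent CS or, among those above background, with continuous CS. Smad1, which carries BMP signals, was at 10.87 after intermittent and 10.80 after continuous CS, against 11.40 with air. It was 1.45-fold and 1.52-fold below air on these arrays, and the CS arrays were 1.05-fold apart. Smad5, the other BMP Smad above background, was at 12.52 on both CS arrays and 12.70 with air. Smad9 lay below background at 4.38, 4.46 and 4.38 with intermittent CS, continuous CS and air. Smad2 and Smad3 carry TGF-beta and activin signals. Smad2 was at 9.76 with intermittent CS and 9.96 with continuous CS and air, and Smad3 at 12.81 with intermittent CS, 12.57 with continuous CS and 12.84 with air. Smad4, the common partner, was at 12.09, 12.08 and 12.13 on the 3 arrays. The median log2 difference from air was -0.12 on each CS array over the 6 genes and -0.19 over the 5 above background. Apart from Smad1, these values were within 1.21-fold of air.

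Among the secreted inhibitors, Fstl3, a follistatin-like protein that binds activin and myostatin, was at 8.37 with intermittent CS, 9.14 with continuous CS and 8.51 with air. Continuous CS was 1.55-fold above air, and intermittent CS 1.70-fold below continuous CS. Fstl1, a secreted glycoprotein that can dampen BMP4 signaling in the developing mouse lung, was at 7.67 with intermittent CS and 7.27 with continuous CS and air, a 1.32-fold excess with intermittent CS. Chordin (Chrd) lay near background at 5.15, 5.56 and 5.46 with intermittent CS, continuous CS and air, and Fst at 5.22, 5.11 and 5.11. Noggin (Nog) and gremlin (Grem1), both traps for BMP ligands, lay below background on every array. Inside the cell, Smad6, which blocks BMP receptors and is itself induced by BMP, held the same value of 7.03 on all 3 arrays. Smad7, its TGF-beta counterpart, was at 6.20 on both CS arrays and 6.21 with air. The ubiquitin ligases Smurf1 and Smurf2 were within 1.03-fold on all arrays.

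The Id genes encode helix-loop-helix proteins that hold other transcription factors off DNA, and BMP signals induce them in many cells. Id1 was at 8.02 on both CS arrays and 8.26 with air, 1.18-fold lower with smoke. Id2 was at 15.65 with intermittent CS, 15.73 with continuous CS and 15.81 with air. Id3 was at 5.58 on both CS arrays and 5.66 with air, and Id4 at 6.23 with intermittent CS, 6.03 with continuous CS and 6.14 with air. With continuous CS 4 of 4 lay below air, by a median log2 difference of -0.09, and with intermittent CS 3 of 4 did, by a median of -0.11. The olfactory and vomeronasal receptor clusters, taken as spots without signal, differed from air with a standard deviation of 0.24 on the log2 scale with intermittent CS and 0.25 with continuous CS. Each Id difference was no larger than that spread. The receptor clusters lie mostly below background, so their spread gives no error for genes well above it, such as Id1 and Id2.

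The 4 genes that matched by name only have other main roles. Bmp1, a protease that trims procollagen and frees BMPs from chordin, was at 13.04 with intermittent CS, 12.83 with continuous CS and 13.32 with air. The kinase gene Bmp2k was at 11.31, 11.10 and 11.56 on these arrays. Both lay below air on each CS array, by 1.21-fold and 1.18-fold with intermittent CS and by 1.40-fold and 1.37-fold with continuous CS. Tgfb1i1, a focal adhesion protein gene, and Tgfbrap1, a receptor-associated protein gene, were at most 1.25-fold and 1.16-fold apart between arrays.

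**Figure D2:**
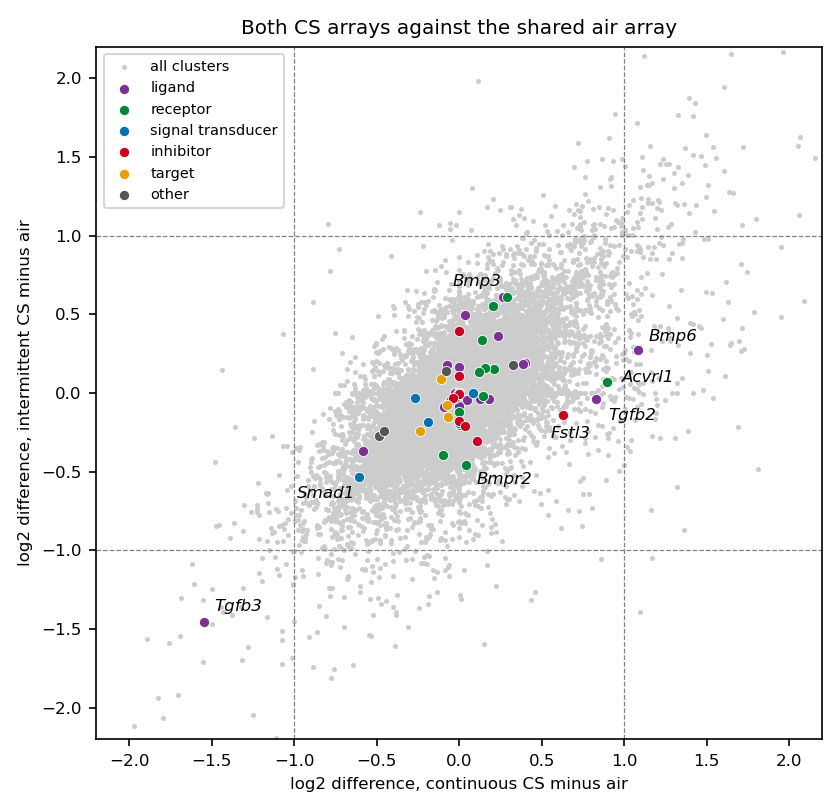
Log2 difference of continuous CS minus air (x axis) and intermittent CS minus air (y axis) for the 62 pathway genes, coloured by role, over all clusters in gray (45 clusters lie outside the axes); dashed lines mark 2-fold, and both axes share the air array. Tgfb3 lies at -1.55 and -1.46, while Bmp6, Acvrl1, Tgfb2 and Fstl3 lie to the right, at 0.63 to 1.09 on the x axis and between -0.14 and 0.28 on the y axis.

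A wider list of 54 further pathway genes had 51 measured. With intermittent CS, 1 was at least 2-fold below air (0.716% of all clusters were) and 0 above (0.833%). With continuous CS, 3 were at least 2-fold above air (1.13%) and 0 below (0.473%). Between intermittent and continuous CS, the same 3 were lower (0.635%) and 0 higher (0.117%). Itgb6, the integrin subunit that with its partner releases TGF-beta from its latent complex on epithelium, was at 9.32 with intermittent CS, 9.77 with continuous CS and 10.57 with air. It was 2.36-fold below air with intermittent CS and 1.73-fold with continuous CS. Of 8 nuclear corepressors and cofactors, 3 lay above and 5 below air with intermittent CS (median -0.24), and 1 above, 5 below and 2 level with air with continuous CS (median -0.01). The corepressor genes Ski and Tgif2, both brakes on Smad-driven transcription, were the lowest against air with continuous CS. Ski was at 10.73 after intermittent and 10.54 after continuous CS, against 11.20 with air. Tgif2 was at 8.42 and 8.43 on the CS arrays, against 9.03 with air. The transcription factor gene Runx1 lay on the other side, at 12.02 with intermittent CS and 11.86 with continuous CS, and at 11.55 with air. Pmepa1, a TGF-beta target that feeds back on the Smads, was at 9.15 after intermittent and 9.21 after continuous CS, against 9.56 with air. It was 1 of 7 measured TGF-beta targets, all of which lay lower with intermittent than with continuous CS (median log2 difference -0.38), while 5 of 7 lay below air with intermittent CS (median -0.13) and 6 of 7 above it with continuous CS (median 0.33). Over the 6 targets above background, these medians were -0.35, -0.08 and 0.30. Of 12 further secreted inhibitors and modulators, 8 lay below background. Of the other 4, Twsg1, Dand5 and Nbl1 were above air on both CS arrays, none by 1.5-fold, and Sostdc1 held the same value with intermittent CS and air and lay 0.25 lower on the log2 scale with continuous CS. Except for Fn1, no gene of these 3 lists was 2-fold apart on any pair of arrays, and the median over all clusters was 0.00 in each comparison.

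The 3 genes higher with continuous CS were the endothelial co-receptor gene Eng (endoglin), the BMP and Notch target Hey1 and the fibronectin gene Fn1. Eng was at 11.21 with intermittent CS, 12.53 with continuous CS and 11.34 with air. Hey1 was at 7.34, 8.70 and 7.51 on the same arrays, and Fn1 at 7.14, 8.23 and 7.14. Like Bmp6, Tgfb2, Acvrl1 and Fstl3, their values with intermittent CS and air lay closer to each other than to the higher value with continuous CS. Continuous CS was 2.28-fold above air for Eng, 2.27-fold for Hey1 and 2.13-fold for Fn1. Of the 6 BMP targets listed, 3 lay above, 1 below and 2 level with air with continuous CS (median log2 difference 0.06). With intermittent CS, 1 lay above, 2 below and 3 level with air (median 0.00). Over the 3 above background, the median difference from air was 0.87 with continuous CS and 0.00 with intermittent CS. Between intermittent and continuous CS it was -0.72. Gata2, above background like Hey1, was at 6.47 with intermittent CS, 7.19 with continuous CS and 6.32 with air. Atoh8, also above background, held the same value on all 3 arrays.

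Markers of endothelial cells, in which Acvrl1 and Eng are abundant, moved the same way. With continuous CS, 15 of the 17 measured were above air, where 8355 of all 22206 clusters were. By 2-fold or more, 8 were above air (1.13% of all clusters), and the median log2 difference of the 17 was 0.94. With intermittent CS, 15 were lower than with continuous CS and 2 held the same value, with a median of -0.97, while the median against air was -0.02. The log2 of their summed level was 13.46 with intermittent CS, 14.59 with continuous CS and 13.55 with air. The defining markers were above background on every array: Pecam1 was at 8.99 with intermittent CS, 9.96 with continuous CS and 8.93 with air, and Cdh5 at 11.34, 12.60 and 11.28. The part of these cells in the excess of Bmp6, Tgfb2, Acvrl1, Fstl3, Eng, Hey1, Fn1 and other TGF-beta and BMP targets was not tested. In a pool, more cells of a type cannot be told apart from more RNA per cell. Other lists were higher with continuous CS than in air too. The median log2 difference of continuous CS minus air was 0.61 over 11 AT1 markers (2 were 2-fold or more above air), 0.39 over 13 fibroblast and smooth muscle markers (3 were) and 0.29 over 6 airway markers (2 were). Over those above background it was 0.80 for 8 fibroblast and smooth muscle markers and 0.84 for 4 airway markers. The fibroblast gene Dcn was 3.87-fold and the club cell gene Scgb3a2 3.07-fold above air, the furthest of their lists. The measured defining markers of these lists, Col1a1 and Scgb1a1, held the same value on all 3 arrays, 6.40 and 19.61. The median was 0.30 over 7 neutrophil, 0.18 over 16 leukocyte and 0.16 over 7 alveolar macrophage markers. Between intermittent and continuous CS, the median was -0.61 for AT1, -0.05 for fibroblast and smooth muscle (-0.23 over the 8), -0.22 for airway (-0.44 over the 4), -1.59 for neutrophil, -0.56 for leukocyte and -0.07 for macrophage markers. The log2 of the summed fibroblast and smooth muscle level was 10.39 with intermittent CS, 11.16 with continuous CS and 9.98 with air. For AT1 markers it was 19.51, 19.46 and 19.11 on these arrays, for airway markers 19.78, 19.85 and 19.72, for neutrophil markers 9.03, 10.60 and 10.02, for leukocyte markers 15.49, 15.74 and 15.49 and for macrophage markers 12.13, 12.49 and 12.20. In the leukocyte sum Lcp1, the highest marker, weighs most, at 15.10 with intermittent CS and 14.79 with air. The airway sum rests mostly on Scgb1a1, and the AT1 sum on Ager and Gprc5a. Gprc5a was 0.26 higher on the log2 scale with intermittent than with continuous CS, where 8 of the 11 AT1 markers were lower. Between intermittent CS and air, the median was 0.15 for AT1, 0.02 for fibroblast and smooth muscle (0.44 over the 8) and 0.10 for airway markers (0.41 over the 4). It was -0.85 for neutrophil, -0.56 for leukocyte and 0.00 for macrophage markers. The part of each of these cell types was not tested either. Of the defining markers measured, the macrophage gene Marco lay below background on every array.

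Tgfb3, Smad1, Itgb6, Ski and Tgif2 lay below air on both CS arrays, and so did some markers. The AT2 marker Hc, which encodes complement C5, was at 16.66 with intermittent CS, 16.41 with continuous CS and 17.54 with air, so that continuous CS was 2.19-fold below air. The leukocyte marker Ptprc was at 10.20 with intermittent CS, 10.41 with continuous CS and 10.92 with air, and Cd52 at 7.66, 7.91 and 8.42. They were the only 2 of the 16 leukocyte markers below air with continuous CS, where 12 lay above (median log2 difference 0.18). With intermittent CS, 13 of the 16 lay below air (median -0.56). Over the 11 AT2 markers below the highest value of the table, 7 lay above and 1 below air with intermittent CS (median log2 difference 0.10), and 3 above and 5 below air with continuous CS (median 0.00). The part of any cell type in the lower values of Tgfb3, Smad1, Itgb6, Ski and Tgif2 was not tested.

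**Figure D3:**
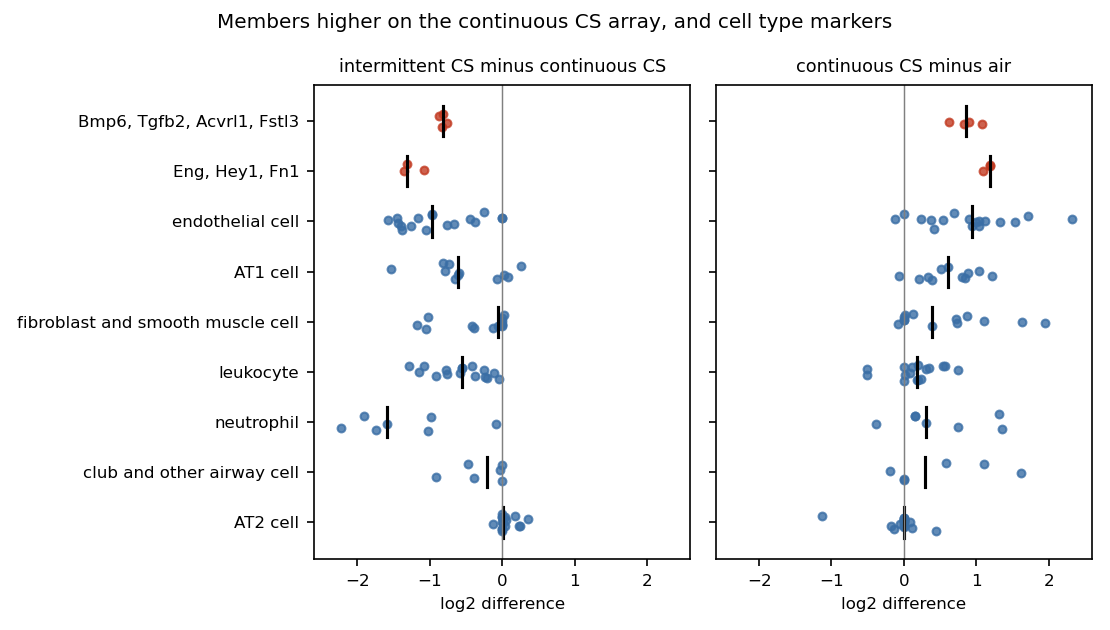
Log2 difference of intermittent minus continuous CS (left) and continuous CS minus air (right) for genes of the pathway higher on the continuous CS array (red, top 2 rows) and for all measured markers of 7 cell types (blue); each point is 1 gene and the black bar is the median. The pathway genes were chosen for their excess on the continuous CS array, the endothelial medians are -0.97 and 0.94, and among the AT2 markers Hc lies at -1.13 on the right while the 5 at the highest value of the table lie at 0.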

How the data were processed

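AT2 cells of 3 mice per exposure were pooled, and 100 ng of RNA was hybridized to 1 array each. Scans went through the Transcriptome Analysis Console, and the authors deposited 1 log2 value per transcript cluster, which was used as it stands. For the software version, summarization and normalization, nothing is given in the sources used here. Symbols came from the platform annotation and equalled the RefSeq symbol for all 62 genes. The log2 difference was taken for each of 3 pairs of arrays, and clusters at least 2-fold or 1.5-fold apart were counted over the pathway genes and over all clusters. With 1 array per exposure there was no statistical test. Arrays have no read depth, so their number limits the precision. Genes were named where at least 1.5-fold apart and above background, or for a core role. Further pathway genes were named at 2-fold, and Ski, Tgif2, Pmepa1 and other genes outside these rules were chosen after their values were seen. Members and lists were chosen with earlier results of these data known. Alternatives were median centring, quantile normalization, an offset of 32 on the linear scale, a floor or a filter at the background, thresholds of 1.5-fold and 3-fold, the list's mean, and averaging the clusters of each gene. Leaving out the 4 name matches was chosen after seeing the data. The steps were tested on simulated data. Python 3.11.15, numpy 2.4.6, pandas 2.3.3 and matplotlib 3.10.9 were used.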

Additional observations from a re-analysis of the deposited data

Results flagged for a closer look

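Tgfb2 and Fstl3 drew attention because the CS arrays lay on opposite sides of air and at least 1.5-fold from each other. The log2 difference of intermittent minus continuous CS was -0.87 for Tgfb2 and -0.77 for Fstl3. Their differences from air were -0.04 and -0.14 with intermittent CS, smaller than the receptor spread of 0.24, and 0.83 and 0.63 with continuous CS. Of the receptor clusters, 99% lay within 0.89 of air with continuous CS, and within 0.75 between the CS arrays. These clusters lie mostly below background, so their spread gives no error for Tgfb2 or Fstl3, which lie above it. The difference between the exposures was not tested, since each has 1 array.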

How the results depend on the processing

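No paired analysis was possible because each exposure has 1 array, and no array could be left out. With a 1.5-fold threshold, 2 genes were above air with intermittent CS, 4 were above and 2 below air with continuous CS, and 4 were lower with intermittent than with continuous CS. With a 3-fold threshold, 0 genes were below air with intermittent CS and 0 were above or below it with continuous CS. With 32 added to each linear value, 0 were 2-fold above air with continuous CS, since Bmp6 was then 1.93-fold higher. The other 2-fold counts and the medians of the list kept their values within the limits set (a factor of 1.5 for a count, the receptor spread for a median) under median centring, quantile normalization, the offset, the floor, the filter, the mean, and without the 4 name matches. For the 2-fold counts, the floor, the filter and leaving out the name matches could change nothing. The genes counted, Bmp6 and Tgfb3, lay above background on every array and are not among the name matches. Averaging over the clusters of a gene changed nothing, since each gene has 1 cluster. Median centring moves every gene alike, by at most 0.04 on the log2 scale, so it could not pass the receptor spread. Averaging and centring each gave 90 of the 450 recomputed differences of the 30 genes named by the rule, with an outcome fixed in advance. The floor could not move a gene above background on every array either, and most of the 30 genes were. Of the 450, 449 moved by less than the receptor spread, and the exception was Nog, which lies below background. Another 5 took the other sign under median centring or quantile normalization, the largest of them 0.00513 in size on the log2 scale. Over these settings Tgfb3 was 2.68-fold to 2.75-fold below air with intermittent CS and 2.85-fold to 2.97-fold below it with continuous CS. Genes below background have no readable difference.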
